A study of Homo sapiens with 6 samples.

Results

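The genes described here load and activate the replicative helicase at origins of DNA replication and copy the DNA at the fork. A list of 46 gene symbols was used: the origin recognition complex and Cdc6, the MCM helicase with its activators, the replicative polymerases with primase, the sliding clamp with its loader and the Okazaki fragment enzymes, and proteins that protect the fork or assemble chromatin behind it. All 46 were matched by symbol to a single gene each among the 53492 genes of the tables, and all 46 passed the filter on low values used for testing (a mean of at least 1 FPKM over the 6 libraries), which left 13231 genes. Polyadenylated RNA was sequenced in 3 libraries of cells transfected with pCS2-eGFP-CCNB1IP1 (here GFP-CCNB1IP1) and 3 of cells transfected with pCS2-eGFP-N (here GFP), a vector for green fluorescent protein. The labels name the cells of all 6 libraries as SH-SY5Y, a human neuroblastoma line. The protein CCNB1IP1 (HEI10) attaches ubiquitin to other proteins, binds cyclin B and takes part in meiotic crossing over. The labels give no time after transfection and no share of cells that took up the vector, and they do not say whether replicates were separate cultures, so p-values measure the spread between these libraries, which may be technical.

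Replication is prepared in G1, when the origin recognition complex and Cdc6 load MCM rings onto DNA as an inactive double hexamer. In S phase Cdc45 and the GINS complex join MCM to form the active helicase, and DNA polymerase alpha with primase, polymerase epsilon and polymerase delta then synthesise the strands, with PCNA as the sliding clamp. Transcription of many of these genes depends on E2F factors and is highest near the G1/S boundary, so their summed RNA is widely used as a sign of proliferation. In bulk RNA, fewer cells in a phase and less RNA per cell cannot be told apart.

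The tables carry mouse gene identifiers, so every value given here is that of a mouse gene in libraries labelled as human. Depth relative to the GFP mean, estimated from the width of the deposited intervals, was 0.743 to 1.04 in the GFP-CCNB1IP1 libraries and 0.950 to 1.06 in the GFP libraries. The lowest was GFP-CCNB1IP1 replicate 2. Mouse Ccnb1ip1 was at or under 0.191 FPKM in the GFP-CCNB1IP1 libraries and at or under 0.125 FPKM in the GFP libraries, which does not check the labels, since the introduced sequence was not analysed here. Of 11 noradrenergic neuroblastoma markers, 9 were at 1 FPKM or more in every library, with summed levels of 765 to 850 FPKM in the GFP-CCNB1IP1 libraries and 900 to 990 FPKM in the GFP libraries. Dbh, the dopamine beta-hydroxylase gene, was at 0.371 to 0.543 FPKM in the GFP-CCNB1IP1 libraries and 0.613 to 1.14 FPKM in the GFP libraries. Summed markers of fibroblasts (6.39 to 7.72 against 6.06 to 7.63 FPKM), Schwann cells (4.11 to 4.50 against 3.24 to 3.88 FPKM), leukocytes (0.341 to 1.58 against 0.197 to 0.678 FPKM), endothelium (2.17 to 2.43 against 1.77 to 2.14 FPKM) and epithelium (0.10 to 0.199 against 0.210 to 0.376 FPKM), with GFP-CCNB1IP1 given before GFP, stayed low. Col3a1, Lum, Epcam and Krt18 were at 0 in all 6 libraries.

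Levels spanned a wide range within the apparatus. FPKM is scaled by transcript length. Whether levels are comparable between genes was not tested for these mouse gene values in libraries labelled as human. Genes are therefore set beside each other as FPKM only. Pcna, the sliding clamp gene, was highest, with a mean of 68.4 ± 4.47 FPKM in the GFP-CCNB1IP1 libraries and 76.7 ± 7.21 FPKM in the GFP libraries (SD, n = 3 each, as for all means below). Orc1, the origin recognition subunit whose protein level cycles in human cells, was lowest over the 6 libraries together, with 1.68 ± 0.562 FPKM against 1.67 ± 0.119 FPKM in GFP. Pola1, the catalytic subunit of polymerase alpha, was of similar level and the lower of the pair in the GFP-CCNB1IP1 libraries, with 1.61 ± 0.176 FPKM against 1.98 ± 0.0815 FPKM in GFP, although its partners Pola2 and Prim1 stood at means of 13.2 FPKM (Pola2) and 20.0 FPKM (Prim1) in the GFP-CCNB1IP1 libraries, against 14.9 FPKM (Pola2) and 23.5 FPKM (Prim1) in the GFP libraries. Subunits of one complex were thus not at one FPKM, and this held in both groups.

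**Figure D1:**
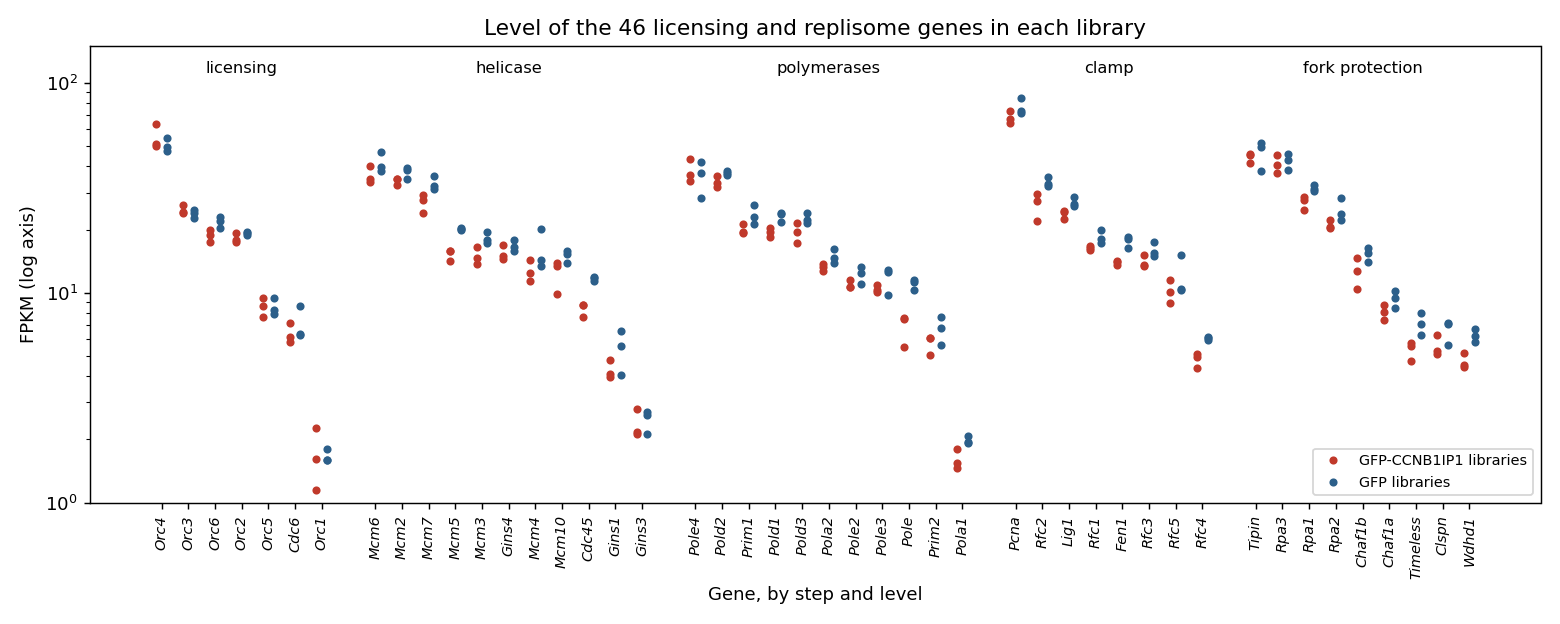
Level of each of the 46 genes in FPKM (log axis), by step and by falling mean level within a step; each point is 1 library, red for GFP-CCNB1IP1 and blue for GFP. Pcna and Orc4 stand at the top, Pola1 and Orc1 at the bottom, and in most helicase, polymerase and clamp genes the red points lie mainly lower than the blue.

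No replication gene passed the test between GFP-CCNB1IP1 and GFP libraries when p-values were adjusted over all genes; most of their fold changes were negative. The comparison asks how expression of this apparatus differs between cells given GFP-CCNB1IP1 and cells given GFP. The median log2 fold change of the 46 genes was -0.195, a ratio of 0.874 after adding the pseudocount of 1, and 42 of the 46 had a negative fold change. Over all genes tested the median was 0.0037, and 6429 of 13231 were negative.

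At an adjusted p under 0.05 (limma on log2(FPKM + 1), Benjamini-Hochberg adjustment over 13231 genes), 0 of the 46 genes were called, beside 0.00756% of all genes tested; the smallest adjusted p among the 46 was 0.176. The 1 gene called was Gm20305, an unnamed gene model that is not on the list, named here after its value was seen. That count was 4 without GFP replicate 1, 2 without GFP-CCNB1IP1 replicate 2, and 0 without GFP replicate 2 or GFP replicate 3. At an unadjusted p under 0.05, 18 of the 46 (39.1%) were lower, beside 5.77% of all genes tested, and 0 were higher, beside 5.59% of all genes. In 21 of the 46 (45.7%) every GFP-CCNB1IP1 library lay under every GFP library, beside 8.90% of all genes, and in 0 did every one lie above, beside 8.70% of all genes. These genes were measured in the same 6 libraries and are not independent of each other, so the shares describe the list and carry no test. Without GFP replicate 3, 29 of the 46 were lower at an unadjusted p under 0.05, beside 4.56% of all genes. Without the shallowest library, GFP-CCNB1IP1 replicate 2, 14 were, beside 4.69% of all genes, with a median log2 fold change of -0.175.

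**Figure D2:**
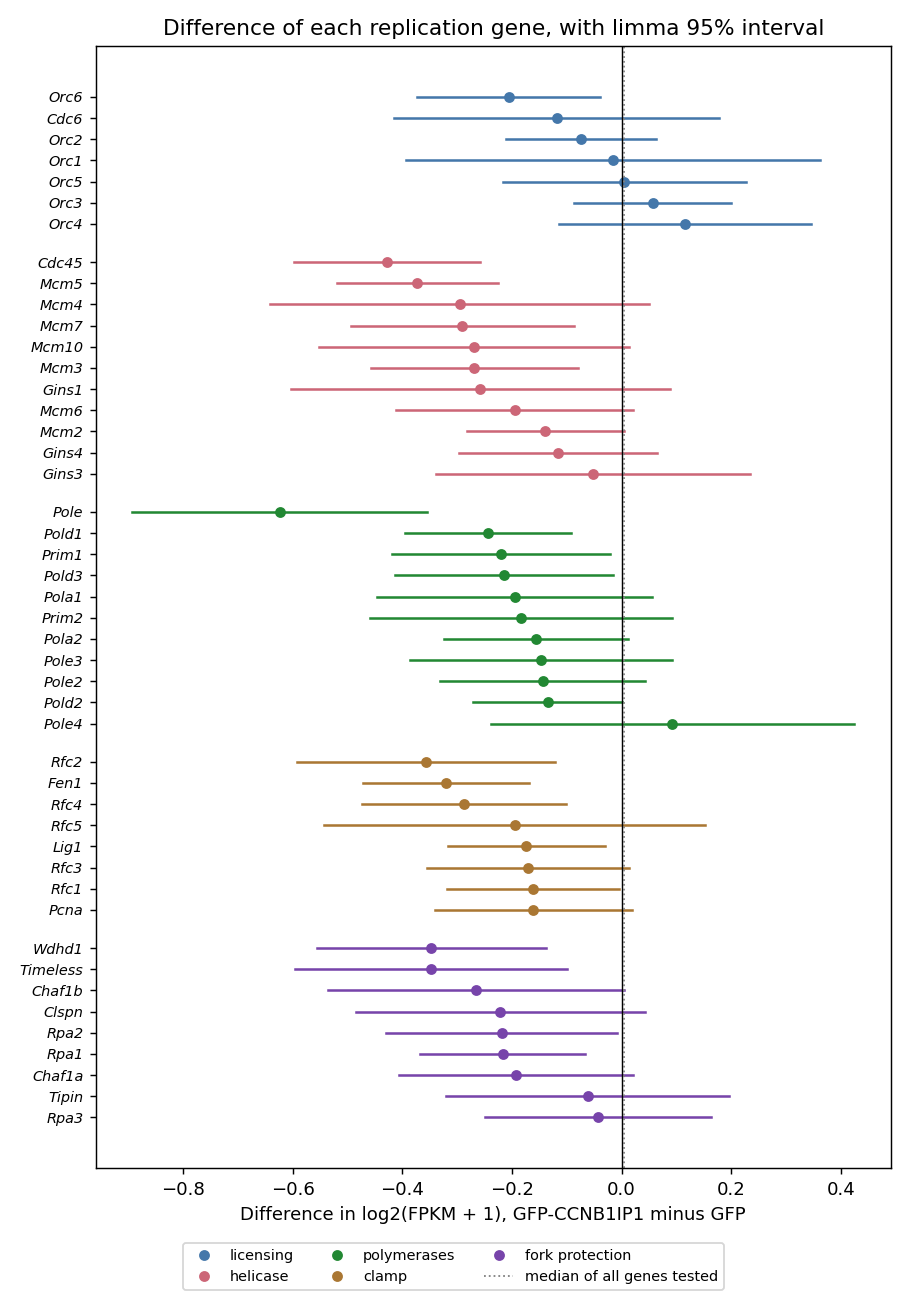
Difference of each gene in log2(FPKM + 1), GFP-CCNB1IP1 minus GFP, with the 95% interval of limma, grouped by step and sorted within it. Points lie left of 0 for 42 of 46 genes; Pole is farthest left at -0.62, and Orc3, Orc4, Orc5 and Pole4 lie right of 0 with intervals that span it.

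The 7 licensing genes, which act first, had a median log2 fold change of -0.015, with 4 negative and 3 positive. At an unadjusted p under 0.05, 0 of the 7 were higher, beside 5.59% of all genes tested, and 1 was lower, beside 5.77%. Orc6, a subunit needed to load MCM rings, was that gene. It had 18.8, 17.4 and 19.9 FPKM in GFP-CCNB1IP1 replicates 1 to 3, against 20.2, 21.9 and 22.9 FPKM in GFP replicates 1 to 3. Every GFP-CCNB1IP1 library lay under every GFP library, which held for 8.90% of all genes tested. The log2 fold change was -0.21 (SE 0.072, limma, adjusted p = 0.355). Orc6 shares 171 bases at one end with Vps35, which was at 28.1 FPKM in GFP-CCNB1IP1 and 27.2 FPKM in GFP; strand was not stated, so reads in such overlaps may not be separable.

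Orc4 had the highest FPKM of the complex. It had 51.2, 64.0 and 50.2 FPKM in the GFP-CCNB1IP1 libraries, against 49.5, 54.8 and 47.4 FPKM in the GFP libraries. Its groups overlapped, with replicate 2 highest in each, and the log2 fold change of 0.12 had a 95% interval of -0.11 to 0.35 (adjusted p = 0.703). Orc2, which with Orc3 forms part of the core of the complex, had 19.2, 17.4 and 17.9 FPKM in GFP-CCNB1IP1 and 19.5, 19.3 and 18.8 FPKM in GFP (adjusted p = 0.681). The locus of Orc2 shares 19046 bases with Nif3l1, at 15.0 FPKM in GFP-CCNB1IP1 and 13.5 FPKM in GFP. Orc5, another subunit of the complex, was level at 9.42, 7.70 and 8.64 FPKM in GFP-CCNB1IP1 and 9.43, 7.89 and 8.32 FPKM in GFP (log2 fold change 0.0052, 95% interval -0.22 to 0.23).

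Cdc6, the loading factor that joins the origin recognition complex in G1, had 7.20, 6.16 and 5.85 FPKM in GFP-CCNB1IP1, against 6.37, 8.61 and 6.26 FPKM in GFP. GFP replicate 2 alone stood high and the other 5 libraries were close together; the log2 fold change was -0.12 (95% interval -0.41 to 0.18), and without GFP replicate 2 it was 0.013. Orc3 had means of 24.8 ± 1.24 FPKM in GFP-CCNB1IP1 and 23.8 ± 1.11 FPKM in GFP. The low Orc1 rested on about 7.20 to 25.7 implied fragments per library. Its 95% interval of -0.39 to 0.36 leaves a wide range of differences undetectable in these libraries.

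All 11 helicase genes had a negative fold change, with a median of -0.27. Of these 11, 4 were lower at an unadjusted p under 0.05, 0 were higher, and 6 had every GFP-CCNB1IP1 library under every GFP library, beside 5.77% lower, 5.59% higher and 8.90% without overlap among all genes tested. No helicase gene passed over all genes. Mcm5 (ENSMUSG00000005410.7, chromosome 8, 75836197 to 75855067, in the coordinates of the tables, whose build is not named), a subunit of the MCM2 to MCM7 ring, had 15.8, 14.2 and 15.9 FPKM in the GFP-CCNB1IP1 libraries, against 20.4, 19.8 and 20.0 FPKM in the GFP libraries. The GFP libraries lay close together and all GFP-CCNB1IP1 libraries were below them, at 76.2% of the GFP mean. The log2 fold change was -0.37 (SE 0.063, 95% interval -0.52 to -0.23, adjusted p = 0.176).

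Cdc45 (ENSMUSG00000000028.16, chromosome 16, 18599197 to 18630737), which turns the loaded ring into the active helicase, had 8.77, 7.68 and 8.78 FPKM in GFP-CCNB1IP1, against 11.9, 11.3 and 11.7 FPKM in GFP. The groups were far apart relative to their spread, with a mean at 72.3% of GFP, a log2 fold change of -0.43 (SE 0.073) and an adjusted p = 0.176. Its locus shares 209 bases with Ufd1, which had 21.9 FPKM in both groups. Mcm7, another subunit of the ring, had 29.3, 27.7 and 23.9 FPKM in GFP-CCNB1IP1 and 32.2, 36.0 and 31.3 FPKM in GFP, without overlap (log2 fold change -0.29, SE 0.088, adjusted p = 0.306). Mcm3 had 16.5, 14.6 and 13.8 FPKM in GFP-CCNB1IP1 and 19.4, 17.9 and 17.2 FPKM in GFP, again without overlap (log2 fold change -0.27, SE 0.081, adjusted p = 0.307).

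The other ring subunits gave smaller or less even differences. Mcm2 was at 34.1 ± 1.24 FPKM in GFP-CCNB1IP1 and 37.6 ± 2.36 FPKM in GFP, with no overlap but a GFP replicate 3 (34.9 FPKM) next to the highest GFP-CCNB1IP1 library (34.8 FPKM). Mcm6, the subunit with the highest FPKM, had 36.2 ± 3.43 FPKM against 41.6 ± 4.55 FPKM in GFP. Mcm4 had 12.7 ± 1.499 FPKM against 16.0 ± 3.67 FPKM in GFP, where GFP replicate 2 alone reached 20.2 FPKM. Both Mcm6 and Mcm4 overlapped between groups. Mcm10, a scaffold for helicase activation, had 12.4 ± 2.18 FPKM against 15.0 ± 0.984 FPKM in GFP, and its highest GFP-CCNB1IP1 library and lowest GFP library were equal to 3 digits, at 13.9 FPKM.

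Of the 3 GINS genes on the list, Gins4 had 15.4 ± 1.31 FPKM in GFP-CCNB1IP1 and 16.8 ± 1.02 FPKM in GFP, and Gins1 had 4.28 ± 0.438 FPKM against 5.39 ± 1.25 FPKM in GFP. Gins3 had the largest p of the helicase genes, with 2.78, 2.16 and 2.13 FPKM in GFP-CCNB1IP1 and 2.12, 2.62 and 2.69 FPKM in GFP. None of these 3 separated the groups. Summed over Mcm2 to Mcm7, the ring genes gave 151, 135.0 and 135 FPKM in GFP-CCNB1IP1 replicates 1 to 3, against 165, 180.0 and 155 FPKM in the GFP libraries, while Orc1 to Orc6 summed to 127, 132 and 123 FPKM against 125, 129.5 and 122 FPKM in GFP. The MCM to ORC ratio of these sums, chosen after the values were seen, was 1.19, 1.03 and 1.10 in GFP-CCNB1IP1 and 1.32, 1.39 and 1.27 in GFP, so it was lower in each GFP-CCNB1IP1 library than in any GFP library.

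**Figure D3:**
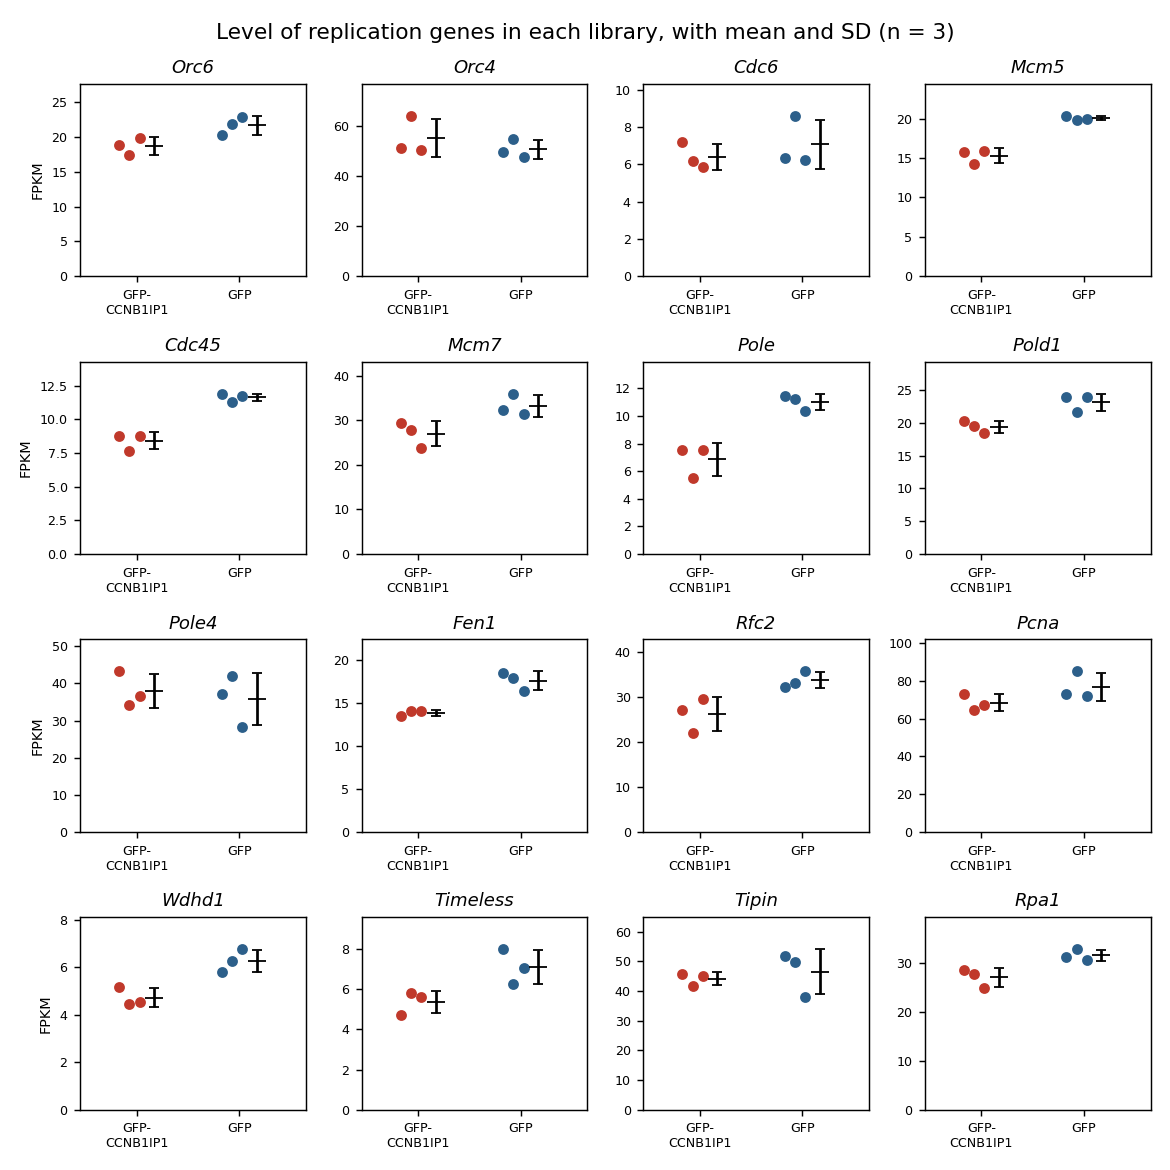
FPKM of selected genes in each library (points, GFP-CCNB1IP1 in red at the left and GFP in blue at the right), with mean and SD of 3 libraries in black; each panel has its own axis from 0. Mcm5, Cdc45, Pole and Fen1 have all red points under all blue points, while Orc4, Cdc6, Pole4 and Tipin overlap.

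Among polymerase and primase genes the difference was largest for Pole, the catalytic subunit of polymerase epsilon, which copies the leading strand. Pole (ENSMUSG00000007080.15, chromosome 5, 110434172 to 110485340) had 7.53, 5.50 and 7.55 FPKM in the GFP-CCNB1IP1 libraries, against 11.5, 11.3 and 10.3 FPKM in the GFP libraries. Every GFP-CCNB1IP1 library was below 8 FPKM and every GFP library above 10 FPKM. The mean was at 62.2% of GFP, the lowest share of the 46 genes. Implied fragments of Pole were not lower in the same way, at 267, 351 and 245 in GFP-CCNB1IP1 and 269, 271 and 298 in GFP. They were highest in GFP-CCNB1IP1 replicate 2, the shallowest library, where the FPKM was lowest. The reason was not tested, and every alternative setting starts from the same FPKM. The log2 fold change was -0.62 (SE 0.116, 95% interval -0.89 to -0.35; limma, adjusted p = 0.176), and over the 17 alternative settings it ranged from -0.69 to -0.44.

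The other epsilon subunits did not show a difference of that size. Pole2 had 11.0 ± 0.519 FPKM in GFP-CCNB1IP1 and 12.2 ± 1.12 FPKM in GFP, and Pole3, a histone-fold subunit, had 10.4 ± 0.430 FPKM against 11.7 ± 1.68 FPKM in GFP. Pole4, the histone-fold partner of Pole3, had 43.2, 34.2 and 36.6 FPKM in GFP-CCNB1IP1, against 37.1, 42.1 and 28.4 FPKM in GFP, and its groups overlapped fully (log2 fold change 0.093, 95% interval -0.24 to 0.42). The ratio of Pole to Pole2 within a library, again chosen after the values were seen, was 0.707, 0.476 and 0.708 in GFP-CCNB1IP1 and 0.869, 1.02 and 0.829 in GFP. Pole to Pole3 was 0.691, 0.536 and 0.749 in GFP-CCNB1IP1 and 0.893, 0.899 and 1.06 in GFP. Pole to Pole4 was 0.174, 0.161 and 0.206 in GFP-CCNB1IP1 and 0.309, 0.267 and 0.365 in GFP. None of these ratios overlapped between groups. All have Pole as numerator, so they are not independent of its lower values given above. Other subunit ratios computed the same way did overlap: Timeless to Tipin was 0.104, 0.138 and 0.123 in GFP-CCNB1IP1 and 0.153, 0.126 and 0.186 in GFP, and Rfc2 to Rfc1 was 1.64, 1.39 and 1.81 in GFP-CCNB1IP1 and 1.80, 1.66 and 2.07 in GFP.

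Polymerase delta, which copies the lagging strand, had negative fold changes in its 3 listed subunits, and none passed over all genes. Its catalytic gene Pold1 had 20.3, 19.5 and 18.4 FPKM in GFP-CCNB1IP1, against 23.9, 21.6 and 23.8 FPKM in GFP, without overlap (log2 fold change -0.24, SE 0.065, adjusted p = 0.272). Pold3, an accessory subunit that binds PCNA, had 17.3, 19.5 and 21.5 FPKM in GFP-CCNB1IP1 and 21.5, 22.3 and 24.1 FPKM in GFP (log2 fold change -0.21, SE 0.086, adjusted p = 0.411; -0.14 without GFP-CCNB1IP1 replicate 1). There the highest GFP-CCNB1IP1 library and the lowest GFP library nearly coincided. Pold2 had 33.7 ± 2.10 FPKM against 37.1 ± 0.829 FPKM in GFP, also without overlap.

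Primase and polymerase alpha start each new strand. Prim1, the catalytic primase subunit, had 21.3, 19.4 and 19.2 FPKM in GFP-CCNB1IP1, against 26.3, 23.0 and 21.2 FPKM in GFP, with a slight overlap between GFP-CCNB1IP1 replicate 1 and GFP replicate 3 (log2 fold change -0.22, SE 0.086, adjusted p = 0.398; -0.14 without GFP replicate 1). Prim2, its regulatory partner, had 5.74 ± 0.612 FPKM against 6.67 ± 1.02 FPKM in GFP. Pola1 and Pola2, whose means are given above, each separated the groups without reaching an unadjusted p under 0.05. Over the 11 polymerase and primase genes, 10 fold changes were negative with a median of -0.18, and 4 genes were lower at an unadjusted p under 0.05, beside 5.77% of all genes, against 0 higher.

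The 8 clamp, clamp loader and Okazaki fragment genes had negative fold changes with a median of -0.18, and 0 of them passed over all genes. An unadjusted p under 0.05 and groups without overlap were found for 5 of the 8, beside 5.77% and 8.90% of all genes, while Pcna, Rfc3 and Rfc5 overlapped. Fen1 (ENSMUSG00000024742.16, chromosome 19, 10176496 to 10181533), the nuclease that trims flaps from Okazaki fragments, had 13.5, 14.1 and 14.1 FPKM in the GFP-CCNB1IP1 libraries, against 18.5, 18.0 and 16.4 FPKM in the GFP libraries. The GFP-CCNB1IP1 values were tight and all lower (log2 fold change -0.32, SE 0.065, adjusted p = 0.201). Fen1 shares 156 bases with Tmem258, at 64.8 FPKM in GFP-CCNB1IP1 and 61.0 FPKM in GFP. Lig1, the ligase that seals the fragments, had 22.6, 24.3 and 24.5 FPKM in GFP-CCNB1IP1 and 26.5, 28.6 and 25.8 FPKM in GFP, without overlap (log2 fold change -0.17, SE 0.062, adjusted p = 0.357).

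The clamp loader RFC opens the PCNA ring; its large subunit Rfc1 belongs to the replicative loader, while Rfc2 to Rfc5 also serve other loaders. Rfc2 had 27.2, 22.1 and 29.5 FPKM in GFP-CCNB1IP1, against 32.3, 33.1 and 35.7 FPKM in GFP (log2 fold change -0.36, SE 0.102, adjusted p = 0.290). Its GFP-CCNB1IP1 values were the more spread, with replicate 2 lowest. Rfc4 had 5.09, 4.93 and 4.40 FPKM in GFP-CCNB1IP1 and 6.08, 6.17 and 5.99 FPKM in GFP, without overlap (log2 fold change -0.29, SE 0.080, adjusted p = 0.283). It shares 194 bases with Eif4a2, which had far higher values, at 94.2 FPKM in GFP-CCNB1IP1 and 96.6 FPKM in GFP.

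Rfc5 had 11.5, 8.95 and 10.1 FPKM in GFP-CCNB1IP1, against 15.1, 10.3 and 10.4 FPKM in GFP. GFP replicate 1 alone stood high, and the 95% interval of the log2 fold change, -0.54 to 0.15, spans 0; the log2 fold change was -0.19 with all libraries and -0.027 without GFP replicate 1. Rfc1 had 16.3 ± 0.377 FPKM against 18.4 ± 1.38 FPKM in GFP, without overlap, and Rfc3 had 14.0 ± 0.925 FPKM against 15.9 ± 1.33 FPKM in GFP, with overlap. Pcna overlapped as well, at 73.4, 64.6 and 67.4 FPKM in GFP-CCNB1IP1 and 73.3, 85.0 and 71.9 FPKM in GFP (log2 fold change -0.16, 95% interval -0.34 to 0.018).

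The 9 fork protection and chromatin assembly genes had negative fold changes with a median of -0.22, and 0 of them passed over all genes. An unadjusted p under 0.05 and groups without overlap were found for 4 of the 9, beside 5.77% and 8.90% of all genes. Wdhd1, also called And-1, which ties polymerase alpha to the helicase, had 5.17, 4.45 and 4.52 FPKM in GFP-CCNB1IP1, against 5.81, 6.24 and 6.75 FPKM in GFP (log2 fold change -0.35, SE 0.090, adjusted p = 0.272). The deposited intervals of Wdhd1 were wide in both replicates 3, implying only 5.75 fragments in GFP-CCNB1IP1 and 9.28 in GFP. Timeless had 4.73, 5.78 and 5.58 FPKM in GFP-CCNB1IP1 and 7.97, 6.27 and 7.06 FPKM in GFP, without overlap (log2 fold change -0.35, SE 0.107, adjusted p = 0.317). Its protein partner Tipin, with which it steadies the paused fork, had 44.2 ± 2.14 FPKM against 46.5 ± 7.50 FPKM in GFP; GFP replicate 3 (38.0 FPKM) was the lowest of the 6 libraries.

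RPA coats single-stranded DNA as a trimer. Its large subunit Rpa1 had 28.5, 27.6 and 24.9 FPKM in GFP-CCNB1IP1, against 31.2, 32.7 and 30.6 FPKM in GFP, without overlap (log2 fold change -0.22, SE 0.065, adjusted p = 0.305). Rpa2 had 22.1, 20.5 and 20.6 FPKM in GFP-CCNB1IP1 and 23.8, 28.3 and 22.1 FPKM in GFP; its highest GFP-CCNB1IP1 and lowest GFP libraries were equal to 3 digits (log2 fold change -0.22, SE 0.091, adjusted p = 0.427; -0.12 without GFP replicate 2). Rpa3, the small subunit, had 45.5, 37.3 and 40.4 FPKM in GFP-CCNB1IP1 and 42.9, 45.7 and 38.4 FPKM in GFP, with full overlap (95% interval -0.25 to 0.16). Claspin, a checkpoint adaptor encoded by Clspn, had 5.54 ± 0.642 FPKM against 6.64 ± 0.875 FPKM in GFP.

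The CAF-1 histone chaperone genes Chaf1a and Chaf1b, whose product places new histones behind the fork, had 8.06 ± 0.671 and 12.6 ± 2.10 FPKM in GFP-CCNB1IP1, and 9.36 ± 0.902 and 15.3 ± 1.19 FPKM in GFP. Both overlapped between groups. Chaf1a shares 5245 bases with Ubxn6, at 21.8 FPKM in GFP-CCNB1IP1 and 23.1 FPKM in GFP. In all, 12 of the 46 genes share some of their locus with another gene at 1 FPKM or more.

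Taking each gene relative to its own GFP mean, the median over the 46 genes was 91.1, 84.2 and 85.3% in GFP-CCNB1IP1 replicates 1 to 3, against 102, 102 and 94.2% in GFP replicates 1 to 3. Each GFP-CCNB1IP1 library was thus below each GFP library, though GFP-CCNB1IP1 replicate 1 and GFP replicate 3 were only a few percent apart. GFP-CCNB1IP1 replicate 2, the shallowest library, held the lowest value for 20 of the 46 genes, and GFP-CCNB1IP1 replicate 3 for 13. The highest value fell in GFP replicate 1 for 19 genes and in GFP replicate 2 for 16. Neither these counts nor the library medians were computed over all genes tested, so they describe the list only. For the helicase genes the same medians were 90.8, 80.1 and 79.1% in GFP-CCNB1IP1, against 101.5, 104.5 and 94.7% in GFP, and for the licensing genes 102, 90.1 and 96.7% against 98.0, 101 and 96.2% in GFP, where the groups overlapped. The part of depth in these values was not tested beyond leaving libraries out, where the median log2 fold change of the 46 genes ran from -0.23 to -0.16.

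**Figure D4:**
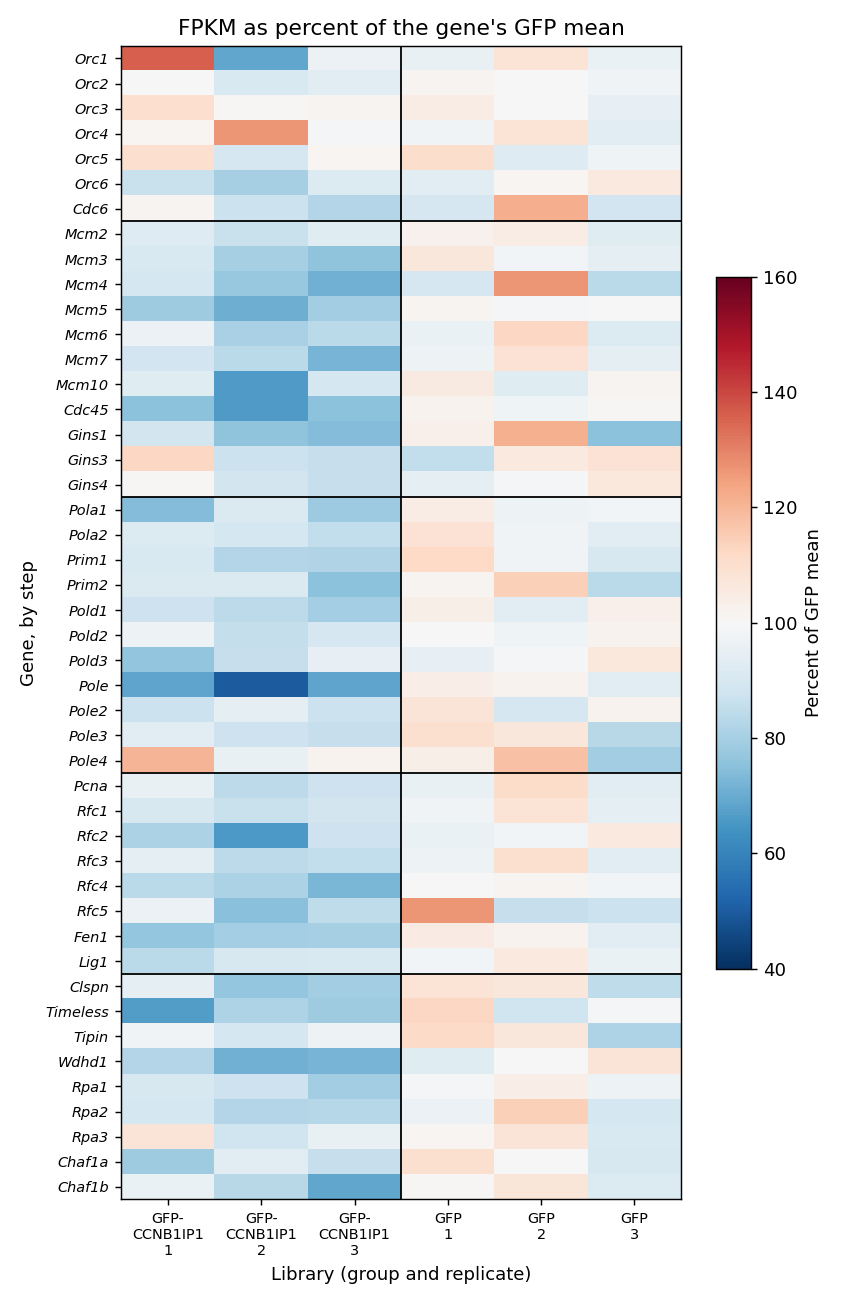
FPKM of each of the 46 genes in each library as a percent of that gene's GFP mean, with GFP-CCNB1IP1 replicates at the left and GFP replicates at the right, and black lines between steps. Blue (below 100%) fills most cells of the GFP-CCNB1IP1 columns from Mcm2 downwards, the Orc rows are mixed, and Pole in GFP-CCNB1IP1 replicate 2 is the darkest blue cell.

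Further genes of the pathway, from a separate list, were also measured. Of 31 other replication factors measured, 22 had a negative fold change with a median of -0.10; 7 were lower at an unadjusted p under 0.05, beside 5.77% of all genes, 0 were higher, and 0 passed over all genes. Chtf18, which takes the place of Rfc1 in an alternative clamp loader, had 3.57 ± 0.126 FPKM in GFP-CCNB1IP1 and 5.44 ± 0.503 FPKM in GFP (log2 fold change -0.49, adjusted p = 0.176). Ticrr, the treslin gene needed to recruit Cdc45, had 1.58 ± 0.0572 FPKM against 2.34 ± 0.0733 FPKM in GFP, and Gmnn, the geminin gene that blocks relicensing, had 10.1 ± 0.852 FPKM against 13.4 ± 1.86 FPKM in GFP. Pclaf, a PCNA-binding protein gene, had 18.1 ± 0.970 FPKM against 22.6 ± 1.86 FPKM in GFP, and Asf1b, a histone chaperone gene, 16.8 ± 1.24 FPKM against 20.2 ± 1.30 FPKM in GFP. In 7 of the 31 every GFP-CCNB1IP1 library lay under every GFP library, beside 8.90% of all genes. In 1 every one lay above, beside 8.70% of all genes. That gene was Chtf8, a partner of Chtf18 named after its values were seen. It had 53.1, 54.0 and 55.5 FPKM in GFP-CCNB1IP1 against 52.2, 51.0 and 52.7 FPKM in GFP (log2 fold change 0.059, limma, adjusted p = 0.668).

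DNA polymerases outside the replisome, which serve repair, lesion bypass or mitochondria, had a median log2 fold change of -0.077 over 13 genes tested. Of these 13, 3 were lower at an unadjusted p under 0.05, beside 5.77% of all genes, and 0 were higher. In 4 of the 13 (30.8%) every GFP-CCNB1IP1 library lay under every GFP library, beside 8.90% of all genes. In 0 did every one lie above, beside 8.70% of all genes. Polg, the mitochondrial polymerase, had 15.9 ± 0.189 FPKM in GFP-CCNB1IP1 and 18.5 ± 1.60 FPKM in GFP (adjusted p = 0.354), Polq had 2.36 ± 0.281 FPKM against 3.04 ± 0.110 FPKM in GFP, and the bypass polymerase Polh had 6.71 ± 0.0460 FPKM against 7.96 ± 0.783 FPKM in GFP. Primpol, a primase that restarts stalled forks, had 13.7 ± 0.860 FPKM against 15.4 ± 1.49 FPKM in GFP, and Poli, another bypass polymerase, had 4.97 ± 0.289 FPKM against 4.55 ± 0.503 FPKM in GFP. No difference between lists was tested, so none of these medians is shown to differ from that of the 46 genes.

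Of the genes of mitosis, all 18 had a negative fold change, beside 6429 of 13231 among all genes tested, and the median was -0.33. At an unadjusted p under 0.05, 13 were lower, beside 5.77% of all genes. In 10 of the 18 (55.6%) every GFP-CCNB1IP1 library lay under every GFP library, beside 8.90% of all genes. In 0 did every one lie above, beside 8.70% of all genes. Mki67, the Ki-67 proliferation antigen gene, had 20.7 ± 1.31 FPKM in GFP-CCNB1IP1 and 28.4 ± 0.641 FPKM in GFP, and Ccnb1, the cyclin B1 gene, had 18.5 ± 1.99 FPKM against 25.9 ± 3.72 FPKM in GFP; neither passed over all genes (adjusted p = 0.176 and 0.270). The share of cells in each phase was not measured, and its part in these differences was not tested.

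**Figure D5:**
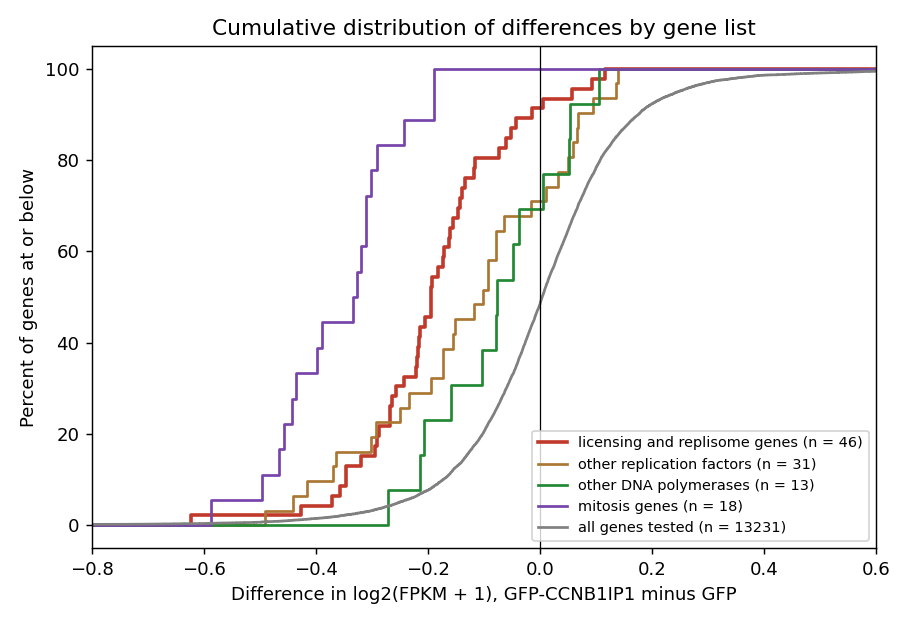
Cumulative share of genes (percent) against the difference in log2(FPKM + 1), GFP-CCNB1IP1 minus GFP, for the 46 licensing and replisome genes, 31 other replication factors, 13 other DNA polymerases, 18 mitosis genes and all 13231 genes tested. The curve of the 46 genes lies left of that of all genes, with its median at -0.195 against 0.0037, and the mitosis curve lies farther left.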

How the data were processed

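Values are FPKM (fragments per kilobase of transcript, scaled to library size) per gene with a confidence interval and a status, deposited by the authors in 1 table per library, per the file headers. Per the submitters' processing notes the tools were HISAT2 and Cufflinks; their versions, the genome build and the strand setting were not stated. Locus starts count from 0 in the tables and are given from 1 here. Rows with the same identifier were summed, which left 53492 genes. FPKM were used with no further scaling. Genes with a mean of at least 1 FPKM were tested on log2(FPKM + 1), a scale that understates the change of low genes, with limma 3.58.1 in R 4.3.3 (mean-variance trend, no block), with Benjamini-Hochberg adjustment over 13231 genes. An exact permutation test of 3 against 3 cannot go below p = 0.1, so none was used. Read totals are not in the tables: implied fragments are the square of FPKM over its standard error, with the upper bound taken as 2 standard errors above it, and relative depth is their median ratio to FPKM over 2244 genes with 5 to 50 implied fragments. The 46 genes had a median of 336 implied fragments per library.

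The 46 genes, the steps, the other lists and the tests were chosen with earlier results of these data known. In each step the 4 genes with the smallest p and the 1 with the largest are given in every library, and in 2 other lists the 5 with the smallest p; other values are those of the remaining listed genes, except where a choice after seeing values is stated. Of 33 other replication factors listed, 31 were measured. The other 2, Cdt1 and Gins2, matched no gene by exact symbol and are not analysed here. Promoter motifs were not searched, since the promoter table at hand is human. Alternatives changed the pseudocount (0.1 or 5) and the filter (none, or a mean of at least 5 FPKM), and used TPM, median-of-ratios and quantile scaling, a replicate block, limma with no trend or with a robust prior, removal of loci under 300 bases, and omission of each library.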

Additional observations from a re-analysis of the deposited data

How the results depend on the processing

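Under all 17 alternatives, 0 of the 46 genes were called over all genes tested (smallest adjusted p from 0.152 to 0.430). In each one that tested them, 38 had a negative fold change, and 12 stayed at an unadjusted p under 0.05. The shares of all genes that did so throughout were not computed. The median log2 fold change was -0.21 to -0.15 with all libraries kept and -0.23 to -0.16 with each left out. The count of genes lower at an unadjusted p under 0.05 was 16 to 23 with all libraries kept, beside 4.18 to 6.33% of all genes. With each library left out it was 13 to 29, beside 4.46 to 6.005% of all genes. The cause of that spread was not tested. The count over all genes was 0 with a pseudocount of 5, no filter, no trend, the replicate block or short loci left out, and 0 to 4 with each library left out. Signs turned in at least 1 setting for Orc5, Pole4, Rpa3, Cdc6, Orc1 and Tipin and for no other of the 46: Orc5 was -0.0056 as TPM, and with each library left out Orc5 ran from -0.057 to 0.073, Pole4 from -0.062 to 0.21, Rpa3 from -0.12 to 0.022, and Cdc6 from -0.19 to 0.013, while over all settings Orc1 ran from -0.17 to 0.13 and Tipin from -0.20 to 0.022. With the replicate number as a block, 19 of the 46 were lower at an unadjusted p under 0.05, beside 5.33% of all genes. The median was -0.195. Deviations of libraries with the same number correlated at 0.023, -0.0093 and -0.011 across genes, so the numbers were not taken to pair the samples, and the block changed no call among the 46. Orc1, Gins1, Gins3, Pola1 and Wdhd1 were under 50 implied fragments in at least 1 library, which limits their values. For Wdhd1 these were both replicates 3, whose relative depths were 1.04 in GFP-CCNB1IP1 and 0.950 in GFP. The reason for its wide intervals there was not tested.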
